A study of Mus musculus with 10 samples.

Results

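Polyamine synthesis and antizyme genes were followed through depolarization of mouse cortical cultures, at the level of transcript abundance and of ribosomal occupancy. The group was defined by name as 9 genes, Azin1, Azin2, Odc1, Oaz1, Oaz2, Amd1, Sat1, Srm and Sms, and its members were all Ensembl transcripts of these genes with counts. Counts were found for 11 transcripts of 4 of the 9 genes, out of 22534 transcripts of 13184 genes in all: 2 of Azin1, 3 of Azin2, 3 of Oaz1 and 3 of Oaz2. Odc1, Amd1, Sat1, Srm and Sms were not analysed here.

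The cultures were made from the cortex of newborn FVB mice of both sexes and held neurons and glia after 7 days of growth. Cultures 1, 2 and 3 were left untreated, and cultures 4 and 5 were depolarized with 55 mM KCl for 3 h. All 5 received cycloheximide, which stalls ribosomes on mRNA, for 7 min before harvest. Each culture gave 1 RNAseq library, which measures transcript abundance, and 1 ribosome footprinting (RF) library, which counts the mRNA fragments that ribosomes protect from RNase. The labels do not say whether the cultures came from separate litters, so p-values measure the spread between these cultures.

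Polyamines are small cations that cells need for growth and translation. Ornithine decarboxylase, encoded by Odc1, makes the first of them, putrescine. Antizymes, encoded by the Oaz genes, bind ornithine decarboxylase and send it to the proteasome, and they are themselves made only when ribosomes shift frame within their mRNA, which polyamines promote. Antizyme inhibitors, encoded by the Azin genes, resemble ornithine decarboxylase without its activity and sequester antizyme. The Azin1 mRNA carries a conserved upstream reading frame in its 5′UTR that begins at a codon other than AUG and is known to restrain synthesis of the inhibitor when polyamines are plentiful.

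The sequences around these control elements show what ribosomes meet on the member mRNAs. They were read from the GRCm38 genome, 5′ to 3′ on the coding strand. The first pair shows a candidate upstream start of Azin1, at chr15:38518948-38518974 (minus strand) in the 5′UTR. Beside it is the annotated start of the CDS, at chr15:38501494-38501517 (minus strand). The candidate was chosen from the sequence alone, since the counts give no position within a region. The capitals mark the ATT codon of the longest upstream frame that closes before the CDS, and the ATG of the CDS.
Azin1 upstream frame: ccctctttaaaaATTccgccgaaaaag
Azin1 CDS start: aatacggctgagATGaaaggattt

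The second pair shows the frameshift sites of the antizymes, within the CDS at chr10:80828280-80828309 (plus strand) for Oaz1 and chr9:65686257-65686286 (plus strand) for Oaz2. The capitals mark the codon before the stop of the first frame, that stop codon TGA and the base after it. In ENSMUST00000180036 of Oaz1 and ENSMUST00000153700 of Oaz2, the annotation leaves out 1 base, the T of this TGA, to join both frames.
Oaz1 frameshift site: cctcggtggtgcTCCTGATgtccctcaccc
Oaz2 frameshift site: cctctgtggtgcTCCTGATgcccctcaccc

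Both windows hold 30 bases, of which 28 are identical between Oaz1 and Oaz2. The ATT codon of Azin1 lies 305 nt from the start of the mRNA and 286 nt before the CDS, and its frame runs for 52 codons. The 5′UTR of Azin1 also holds 3 ATG codons, each opening a frame of 17, 7 or 9 codons that closes before the CDS. In Azin2, 2 upstream ATG codons open frames of 9 and 29 codons. No upstream ATG was found in the named transcripts of Oaz1 and Oaz2.

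RNAseq libraries held between 3056286 and 3629959 counted reads. RF libraries differed more, with 7719915, 6551613 and 1463654 reads in untreated cultures 1, 2 and 3 and 1608235 and 3120710 in KCl cultures 4 and 5, so that values of cultures 3 and 4 rest on the fewest footprints. In RF, 90.5% to 93.3% of reads lay on the CDS. RNAseq detected the markers of neurons and glia in every culture. Summed over 5 astrocyte markers (Gfap, Aqp4, Slc1a3, Aldh1l1, Aldoc), RNAseq CPM (counts per 1000000 counted reads of a library) were between 7924 and 9015 in untreated and between 6461 and 6866 in KCl cultures. Sums over 5 neuronal markers with counts were between 359 and 510 and between 420 and 426, and those over 3 endothelial markers were at most 6.20 in any culture. Microglial (88.0 to 108 untreated, 61.8 to 85.4 with KCl), oligodendrocyte lineage (1191 to 1297, 1087 to 1096) and fibroblast sums (433 to 515, 339 to 387) were, like the astrocyte sum, lower in both KCl cultures. In each of these 4 lists edgeR called 1 marker lower and 0 higher, of 5 astrocyte, 4 microglial, 6 oligodendrocyte lineage and 3 fibroblast markers tested. Of 5 neuronal markers tested, 0 were called. Of the 7262 transcripts in the main RNAseq comparison below, 33.0% were called in either direction and 17.9% were higher. Of 17206 transcripts that passed edgeR's filter on low counts, 28.1% had lower normalised RNAseq CPM in both KCl cultures than in every untreated culture. This share is of single transcripts, whereas the marker values are sums. The part of cell composition in the member changes was not tested, and fewer cells of a type and less RNA per cell cannot be told apart.

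Transcripts were called measured when RNAseq and RF both reached at least 10 RPKM (reads scaled to transcript length and library size) within a culture, for at least 2 of the cultures. The filter kept 7262 transcripts of 4369 genes, among them 3 of the 11 member transcripts: both of Azin1 and 1 of Oaz2. KCl and untreated cultures were compared over all of them with edgeR's quasi-likelihood test, and a transcript was called at an adjusted p under 0.05. The members were listed with their response to KCl known, so the calls describe these cultures and are no independent evidence.

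Azin1, antizyme inhibitor 1, differed between untreated and KCl cultures in ribosomal occupancy. Its footprints on the CDS rose 2.92-fold, its transcript abundance showed no change that passed the test, and the ratio of its 5′UTR to CDS footprints fell. The transcript named here, ENSMUST00000065308 of gene ENSMUSG00000037458, lies at chr15:38487427-38519266 (minus strand, GRCm38) in 12 exons and has a 5′UTR of 590 nt, a CDS of 1344 nt and a 3′UTR of 2937 nt.

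In RNAseq, Azin1 had 218, 188 and 188 normalised CPM in untreated cultures 1, 2 and 3, and 228 and 178 in KCl cultures 4 and 5. The KCl values lay on both sides of all untreated values. The log2 fold change was 0.03 (SE 0.14, adjusted p = 0.89, edgeR), and it ran between -0.16 and 0.20 when single cultures were left out. Most RNAseq reads came from the 3′UTR, and the CDS held 14.3% to 22.1% of them without KCl and 19.1% and 19.4% with KCl.

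On the CDS of Azin1, RF counted 438, 329 and 90 reads without KCl, or 56.7, 50.2 and 61.5 CPM of all RF reads. The KCl cultures had 257 and 443 reads, or 160 and 142 CPM. Both KCl cultures were above every untreated culture, as for 30.2% of all measured transcripts. Its log2 fold change was 1.55 (SE 0.12, adjusted p = 4.27e-11, edgeR), against a median of -0.01 over all measured transcripts. RF on the CDS called 2 of the 3 measured member transcripts, both of Azin1, against 40.9% of all measured transcripts in either direction and 20.8% that were higher. Both transcripts carry the same CDS reads and count as 1 observation.

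Translation efficiency (TE), the RF RPKM of the CDS over the RNAseq RPKM of the same culture, was 1.20, 1.22 and 1.48 for Azin1 in the untreated cultures, with a mean of 1.30 ± 0.156 (SD, n = 3). It was 3.38 and 3.85 in the KCl cultures, with a mean of 3.61 ± 0.334 (SD, n = 2). All KCl values were above all untreated values, as for 14.2% of all measured transcripts. In untreated cultures 33.9% of measured transcripts had a lower mean TE than Azin1, and in KCl cultures 85.1% did. In an edgeR model of both assays, with culture as a block, the log2 change in TE was 1.52 (SE 0.20, adjusted p = 6.16e-11, edgeR). TE called 2 of the 3 measured member transcripts, both of Azin1 and both higher, against 5.80% of all measured transcripts in either direction and 1.53% that were higher. In size, the rise of Azin1 ranked 11 of 7262 transcripts.

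**Figure D1:**
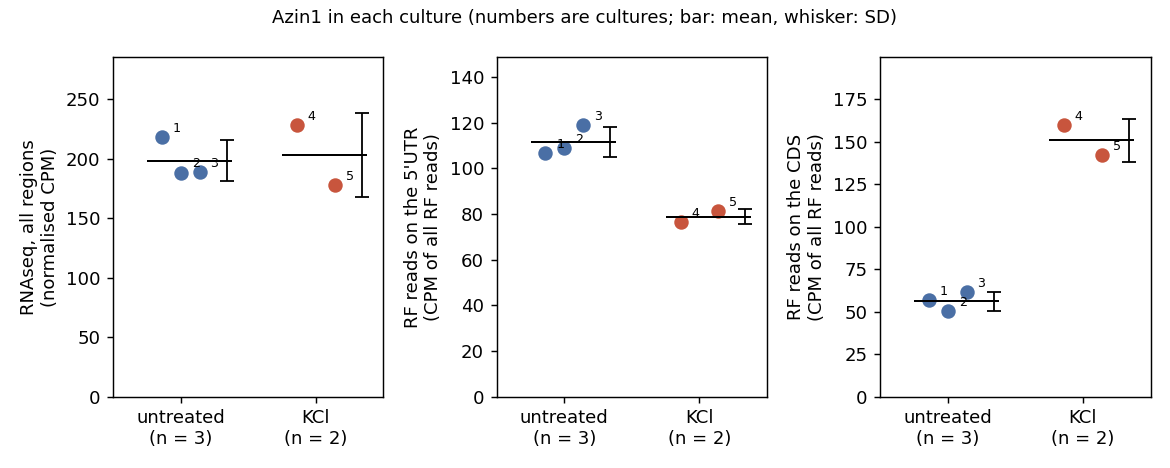
Azin1 (ENSMUST00000065308) in each culture, as normalised RNAseq CPM (left), RF reads on the 5′UTR (middle) and RF reads on the CDS (right), both as CPM of all RF reads. Points are cultures with their numbers, bars are means and whiskers are SD over 3 untreated and 2 KCl cultures. RNAseq overlaps between groups, 5′UTR footprints lie at 76.5 and 81.1 with KCl against 106 to 119, and CDS footprints lie at 142 and 160 against 50.2 to 61.5.

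**Figure D2:**
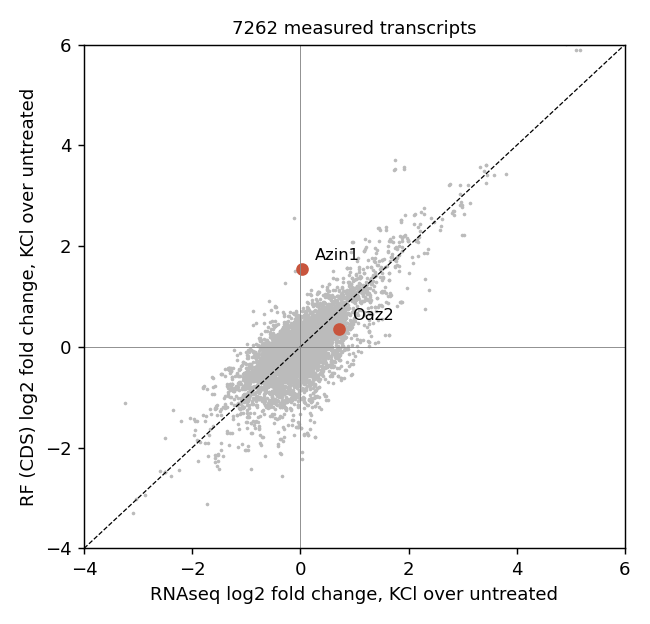
Log2 fold change, KCl over untreated, in RNAseq (horizontal) and in RF on the CDS (vertical) for 7262 measured transcripts, each a grey point, with a dashed line at equal change and 2 points outside the axes. Azin1 lies at 0.03 and 1.55, well above the line, and Oaz2 at 0.72 and 0.36.

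On the 5′UTR of Azin1, RF counted 822, 712 and 174 reads without KCl and 123 and 253 with it. These were 106, 109 and 119 untreated and 76.5 and 81.1 with KCl as CPM of all RF reads, so that both KCl cultures were below all untreated cultures, as for 16.4% of the 4701 transcripts tested. Tested alone, the 5′UTR footprints changed by -0.59 on the log2 scale (SE 0.24, adjusted p = 0.128, edgeR), which did not pass the threshold. The test called 0 of 3 member transcripts by edgeR and 0 by DESeq2, against 8.17% of all 4701 by edgeR, and 2, both of Azin1, had an unadjusted p under 0.05. RNAseq counted 19, 12 and 12 reads on the same 5′UTR without KCl and 9 and 12 with it, too few to compare.

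The 5′UTR held the larger part of Azin1 footprints in untreated cultures and the smaller part in KCl cultures. Of the footprints on 5′UTR and CDS together, 65.2% (95% Wilson interval 62.6 to 67.8), 68.4% (65.5 to 71.2) and 65.9% (60.0 to 71.4) were on the 5′UTR in cultures 1, 2 and 3. In KCl cultures 4 and 5 the shares were 32.4% (27.9 to 37.2) and 36.4% (32.9 to 40.0). The intervals cover counting error only.

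In an edgeR model of both regions, again with culture as a block, the ratio of 5′UTR to CDS footprints of Azin1 fell by 2.09 on the log2 scale (SE 0.28, adjusted p = 0.000854, edgeR). It rests on both KCl cultures: the adjusted p was 0.0709 without KCl culture 4 and 0.155 without KCl culture 5, at log2 changes of -2.02 and -2.15. The test covered 4701 measured transcripts with at least 20 footprints on the 5′UTR and called 0.745% of them, 35 in all, with 13 (0.277%) lower. Among the 3 member transcripts tested, it called both of Azin1. The ratio was lower in both KCl cultures than in every untreated culture in 10.6% of all 4701.

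**Figure D3:**
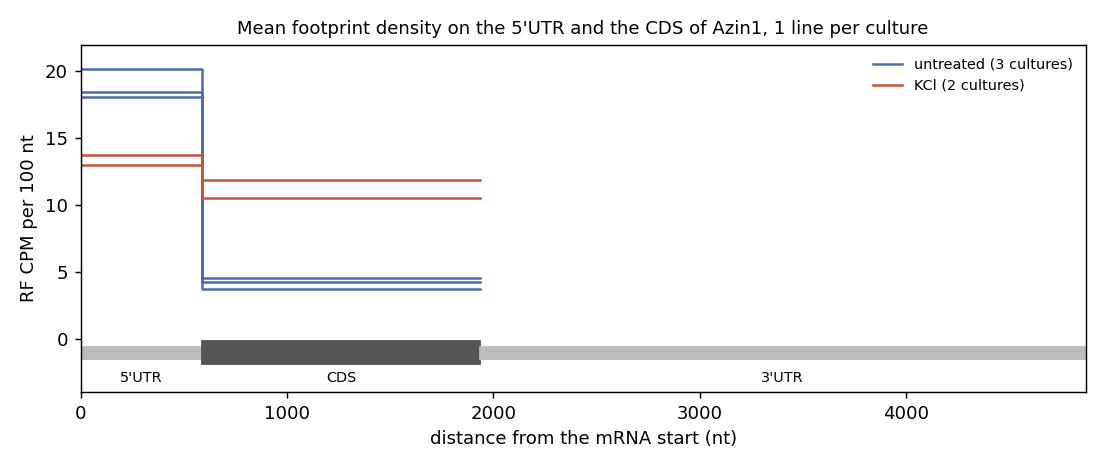
The Azin1 mRNA drawn to scale from its start (horizontal, nt), with the mean RF CPM per 100 nt (vertical) on the 5′UTR and on the CDS, 1 line per culture. The 3 untreated cultures fall from between 18.0 and 20.1 on the 5′UTR to between 3.74 and 4.58 on the CDS, and the 2 KCl cultures run from 13.0 and 13.7 to 11.9 and 10.6. The counts give 1 total per region and no position within it.

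Per length, the 5′UTR of ENSMUST00000065308 was more densely occupied than the CDS. Footprints per nt on the 5′UTR were 4.28, 4.93 and 4.40 times those on the CDS in untreated cultures 1, 2 and 3. They were 1.09 and 1.30 times those on the CDS in KCl cultures 4 and 5. Pooled over the untreated cultures, the ratio was 4.54, rank 80 of 4701 transcripts. These untreated footprints are also 1 arm of the comparison with KCl, so the rank is a description. The median over the 4701 was 0.505, and 19.0% of them had more footprints per nt on the 5′UTR than on the CDS, against 29.3% with KCl. Pools weight each culture by its reads, and the difference between these shares was not tested. Pooled over the KCl cultures the Azin1 ratio was 1.22, rank 1046, where the median was 0.582.

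**Figure D4:**
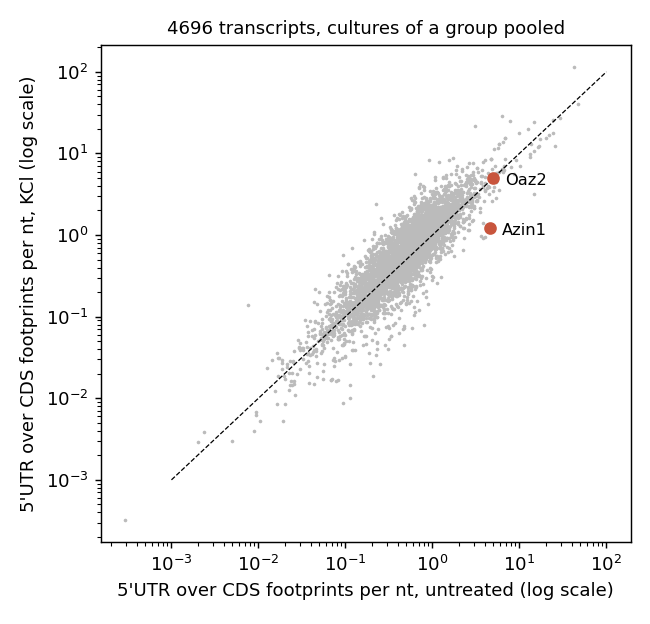
Footprints per nt on the 5′UTR over those on the CDS, pooled over untreated (horizontal) and KCl cultures (vertical), both on log scales, for 4696 transcripts in grey, with 5 transcripts with a value of 0 or none left out and a dashed line at equal ratios. Azin1 lies below the line at 4.54 and 1.22, and Oaz2 close to it at 4.93 and 5.07. RNAseq listed 0 reads on the Oaz2 CDS, so part of that CDS may be uncounted. The level of the Oaz2 ratio is therefore not comparable with that of Azin1 or other genes.

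The other Azin1 transcript, ENSMUST00000110329, has a 5′UTR of 747 nt from an additional exon. Its 5′UTR held 819, 715 and 177 footprints without KCl and 122 and 254 with KCl. These are nearly the reads of the shorter 5′UTR, so the annotated isoforms were not told apart by their footprints. Over this longer 5′UTR, footprints per nt were 3.36, 3.91 and 3.54 times those on the CDS without KCl, and 0.854 and 1.03 times with KCl. Whether the 5′UTR remained denser than the CDS with KCl therefore depends on which isoform is taken.

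By the distance between profiles over the 10 libraries, in log2 normalised CPM centred within each assay, the 5 genes most like Azin1 among 4369 measured genes were Etnk1, Basp1, Marcks, Hspa13 and Sbno1, at distances of 0.62 to 0.78. Etnk1 encodes an ethanolamine kinase, Basp1 and Marcks encode membrane-bound proteins that bind phosphoinositides, and Hspa13 encodes a member of the HSP70 family. Their log2 fold changes were between 0.94 and 1.12 in RF, between 0.19 and 0.52 in RNAseq and between 0.59 and 0.92 in TE. In TE, edgeR called Etnk1, Basp1 and Marcks higher but not Hspa13 or Sbno1, where 1.53% of all measured transcripts were called higher. These genes were picked for likeness to Azin1 in the same libraries, so their values are a description. The 5′UTR to CDS ratio of Marcks changed by -1.60 on the log2 scale (adjusted p = 0.0218, edgeR), that of Etnk1 by -0.36 (adjusted p = 0.648) and that of Basp1 by -0.37 (adjusted p = 0.591), and Hspa13 and Sbno1 had too few 5′UTR footprints to enter that test.

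Azin2, antizyme inhibitor 2, was a low-abundance mRNA that did not pass the RPKM filter. It was tested among all transcripts that passed edgeR's filter on low counts, 17206 in RNAseq and 16376 in RF. Its named transcript, ENSMUST00000030581 at chr4:128932022-128962439 (minus strand), had 25.3, 36.3 and 32.7 normalised RNAseq CPM in untreated cultures and 21.8 and 21.6 in KCl cultures. On its CDS, RF gave 20.4, 17.3 and 27.2 normalised CPM untreated and 13.3 and 12.1 with KCl. Both KCl cultures were below all untreated cultures in both assays. So were 28.1% of all transcripts tested in RNAseq and 32.2% of those in RF.

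Neither change of Azin2 passed the threshold, which 24.6% of transcripts passed in RNAseq and 32.5% in RF. Its log2 fold change was -0.48 in RNAseq (SE 0.25, adjusted p = 0.17, edgeR) and -0.62 in RF (SE 0.28, adjusted p = 0.0862, edgeR). TE was 1.15, 0.675 and 1.13 untreated and 0.853 and 0.768 with KCl, and its log2 change was -0.19 (SE 0.40, adjusted p = 0.896, edgeR), where 2.91% of the 15652 transcripts tested were called. The RF change passed with library totals in place of TMM scaling (adjusted p = 0.0238) and without untreated culture 2 (adjusted p = 0.0296).

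Azin2 footprints on the 5′UTR were 38, 17 and 14 in untreated cultures and 11 and 16 in KCl cultures, against 118, 85 and 29 and then 15 and 26 on the CDS. The 5′UTR share of both regions was 24.4%, 16.7% and 32.6% untreated and 42.3% and 38.1% with KCl. In this transcript the KCl shares were higher than all untreated shares, as for 20.3% of the 5498 transcripts tested and opposite in order to Azin1, but the log2 change of the ratio was 0.93 (SE 0.50, adjusted p = 0.415, edgeR), which did not pass. The test called 0.928% of the 5498. For ENSMUST00000106068, which has the same CDS reads and a slightly shorter 5′UTR, the shares were 19.7%, 11.5% and 31.0% untreated and 31.8% and 23.5% with KCl, so that the groups overlapped. Its ratio changed by 0.47 on the log2 scale (adjusted p = 0.753, edgeR). Azin1 and Azin2 were not compared by a test of their difference.

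The antizyme mRNAs Oaz1 and Oaz2 were more abundant with KCl. Oaz1, which encodes the most widely expressed antizyme, rose 2.00-fold in the fit of transcripts that passed edgeR's filter on low counts. Oaz2 rose 1.65-fold in the fit of measured transcripts and 1.71-fold in the fit used for Oaz1. Of the 3 measured member transcripts, RNAseq called only that of Oaz2, against 33.0% of all measured transcripts, 17.9% of which were higher. Among transcripts that passed edgeR's filter on low counts, it called 4 of 9 member transcripts, 2 of Oaz1 and 2 of Oaz2, against 24.6% of the 17206 tested.

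Oaz1 (ENSMUST00000060987, chr10:80826656-80829290, plus strand) had 459, 487 and 493 normalised RNAseq CPM in untreated cultures 1, 2 and 3, and 963 and 877 in KCl cultures 4 and 5. Every KCl value was above every untreated value, which also held for 21.1% of all transcripts tested. The log2 fold change was 1.00 (SE 0.13, adjusted p = 1.37e-09, edgeR), and it remained between 0.93 and 1.06 when single cultures were left out. The reads lay almost wholly beyond the stop codon. The rest of the 3′UTR held 1002, 1084 and 1010 reads without KCl and 1970 and 1999 with it, and the stretch from the stop to the next in-frame stop held 174, 161 and 193 and then 367 and 377.

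Oaz2 (ENSMUST00000153700, chr9:65676548-65690300, plus strand) had 279, 273 and 290 normalised RNAseq CPM without KCl, and 441 and 483 with it. Both KCl cultures were above every untreated culture, as for 27.6% of all measured transcripts. The log2 fold change was 0.72 (SE 0.13, adjusted p = 1.68e-05, edgeR). Leaving out single cultures gave values between 0.65 and 0.78.

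**Figure D5:**
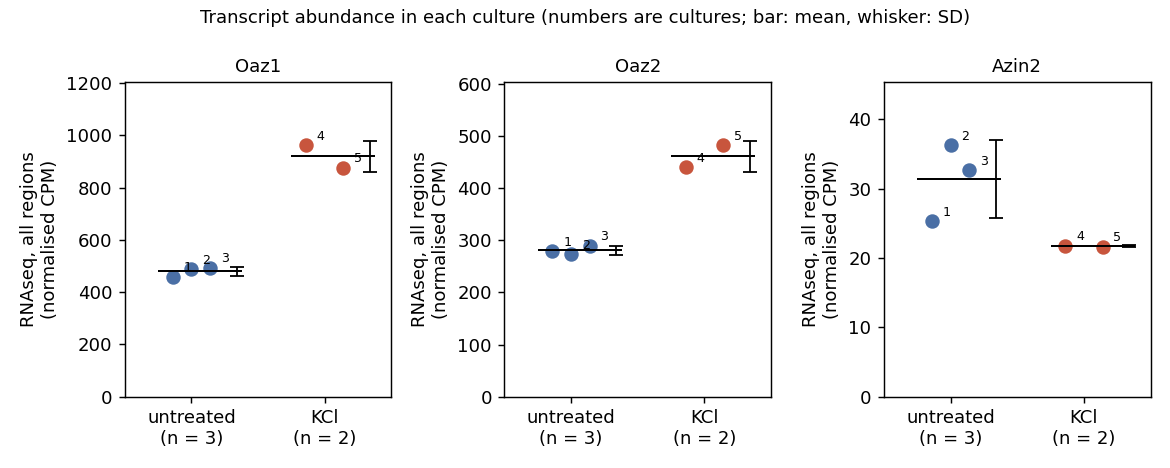
Transcript abundance of Oaz1, Oaz2 and Azin2 as normalised RNAseq CPM in each culture, with cultures as numbered points, means as bars and SD as whiskers over 3 untreated and 2 KCl cultures, and a separate vertical scale for each gene. Oaz1 lies between 459 and 493 untreated against 877 and 963 with KCl, Oaz2 between 273 and 290 against 441 and 483, and Azin2 between 25.3 and 36.3 against 21.6 and 21.8.

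Ribosomal occupancy of the antizymes could be followed only in part. The CDS of Oaz1 was listed at 0 in all 10 libraries and that of Oaz2 at 0 in the RNAseq libraries, while their 3′UTRs were well covered by RNAseq. The authors aligned reads to a transcriptome from which degenerate sequences were removed. Whether this removal gave these zeros was not tested, and the Oaz2 CDS did hold footprints. Such zeros were not limited to the antizymes. Of the 2092 transcripts with at least 1000 RNAseq reads outside the CDS, 8.32%, of 119 genes, had no RNAseq read on the CDS. A CDS count of 0 therefore says nothing of absence, and no TE was computed for Oaz1.

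On the 5′UTR of Oaz1, which is 104 nt long, RF counted 40, 34 and 6 reads untreated and 5 and 15 with KCl, or 5.18, 5.19 and 4.10 and then 3.11 and 4.81 CPM of all RF reads. The groups overlapped, and the log2 fold change was -0.41 (SE 0.45, adjusted p = 0.647, edgeR), in a test that called 8.61% of 5868 transcripts. With so few reads, only a large change could have been detected.

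Oaz2 had 47, 62 and 15 footprints on its 5′UTR of 198 nt without KCl and 13 and 33 with KCl. Its CDS held 44, 21 and 7 and then 6 and 20. On the CDS it changed by 0.36 on the log2 scale (SE 0.41, adjusted p = 0.508, edgeR), and its 5′UTR to CDS ratio by -0.23 (SE 0.58, adjusted p = 0.904, edgeR). The groups overlapped in both. TE of Oaz2 was between 0.0480 and 0.0841 untreated and 0.0366 and 0.0574 with KCl, rank 7261 of 7262 in both groups, and since RNAseq and footprint reads were not listed on the same parts of this mRNA, this level is not comparable with that of other genes. Its log2 change was -0.39 (SE 0.38, adjusted p = 0.666, edgeR).

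The annotation of the Oaz2 frameshift changed its footprint count. ENSMUST00000046490 leaves out 4 bases at the site in place of 1 and has otherwise the same exons, and its CDS held 23, 14 and 7 footprints untreated and 4 and 8 with KCl, against 44, 21 and 7 and then 6 and 20 for ENSMUST00000153700.

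Per length, the order of abundance in untreated cultures was the same in all 3 cultures: Oaz1 at 356 ± 16.0 RPKM, Oaz2 at 121 ± 4.24, Azin1 at 32.3 ± 2.57 and Azin2 at 12.1 ± 2.21 (SD, n = 3). With KCl these became 646 ± 42.9, 188 ± 12.1, 31.3 ± 5.50 and 7.91 ± 0.0414 (SD, n = 2), in the same order. Neighbours in the order differed by more than their spread. The missing CDS reads lower the RPKM of Oaz1 and Oaz2, whose lengths include the CDS.

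Of the wider pathway, 27 further genes of arginine, AdoMet and methionine supply, polyamine breakdown, transport and hypusine synthesis were listed, 18 had counts and 10 were measured, with 21 transcripts. Of the 21, 7 are isoforms of Smox that share reads. RNAseq called 3 transcripts (14.3%) of 2 genes, all higher, against 33.0% of all measured transcripts. RF called 3 transcripts (14.3%) of the same 2 genes, all higher, against 40.9%. TE called 0 transcripts by edgeR and 0 by DESeq2, with 9 of 21 at an unadjusted p under 0.05 in edgeR, against 5.80% called among all measured transcripts. With 1 transcript for each of the 10 genes, the median log2 fold change was 0.08 in RNAseq, 0.04 in RF and 0.06 in TE, whereas over the 21 transcripts it was 0.10, -0.13 and -0.26 and over all measured transcripts 0.00, -0.01 and 0.01. The sign of the RF and TE medians thus depends on how isoforms are counted. In RF, library totals called 3 transcripts higher and 8 lower, the latter of Smox and Atp13a3, the omission of untreated culture 2 called 3 higher and 6 lower, the latter all of Smox, and that of untreated culture 1 called 6 higher and 0 lower. Without KCl culture 4, RF called 3 higher and 2 lower. TE called 3 higher and 1 lower without untreated culture 1, and 2 lower without untreated culture 2.

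In the main fits, edgeR with TMM on the measured transcripts of all cultures, the genes called were Slc3a2 and Enoph1. Slc3a2, the heavy chain of amino acid transporters that has also been linked to polyamine transport, had 353, 379 and 339 normalised RNAseq CPM untreated and 465 and 567 with KCl. Its log2 fold change was 0.53 in RNAseq (SE 0.13, adjusted p = 0.00107, edgeR) and 0.64 in RF (SE 0.08, adjusted p = 2.39e-07, edgeR). Enoph1, an enzyme of the methionine salvage pathway that recycles a by-product of polyamine synthesis, had 18.3, 23.4 and 20.03 normalised RNAseq CPM untreated and 30.0 and 35.5 with KCl. It rose by 0.67 on the log2 scale in RNAseq (SE 0.24, adjusted p = 0.0297, edgeR) and by 0.81 in RF (SE 0.16, adjusted p = 0.00022, edgeR). Without KCl culture 5, RNAseq called neither gene, and the RNAseq call of Enoph1 was also lost with DESeq2, with library totals and without untreated culture 1, untreated culture 3 or KCl culture 4. Smox, which encodes spermine oxidase, changed by 0.05 in RNAseq (adjusted p = 0.884, edgeR) and by -0.49 in RF (adjusted p = 0.0608, edgeR). Neither passed the threshold in the main fits, but with transcripts summed to genes RF called Smox lower. Gene sums count a read shared by isoforms more than once, so they understate counting noise. Other settings called further genes. Among transcripts that passed edgeR's filter on low counts, RNAseq also called Eif5a higher and Eif5a2 lower. RF there called Atp13a2 and Dohh higher and Mtap lower. With no filter beyond 1 read, RF also called Arg2 higher. Gene sums called Sat2 lower in RNAseq, and 1 transcript per gene called Atp13a3 lower in RF.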

How the data were processed

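RNAseq and RF libraries of 3 untreated and 2 KCl cultures were used. A KCl replicate with a small library had been left out in the study. The submitters' processing notes name Trimmomatic 0.32, STAR 2.3.1z8, Bowtie2 2.2.2, bedtools 2.20.1 and the mm10 build. The authors deposited raw counts of reads per transcript region, without normalization, after alignment to a transcriptome without degenerate sequences. Isoforms share reads, and the kit does not mark strand. The deposited counts carry a letter per region, and the letters were assigned to 5′UTR, CDS, stretch from the stop to the next in-frame stop, and rest of the 3′UTR from the annotated lengths and read shares.

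Of 22534 transcripts, 22172 (98.4%) were matched to GENCODE annotation of GRCm38, the same assembly as mm10. RNAseq values were reads of all regions and RF values CDS reads. Counts were tested with edgeR 4.0.16 in R 4.3.3 (robust quasi-likelihood, TMM within each assay or region, Benjamini-Hochberg over all transcripts tested). The SE is the absolute log2 fold change over the square root of F, an approximation. TE and the 5′UTR to CDS ratio were interactions with culture as a block. RNAseq and RF of 1 culture came from 1 lysate, though same-numbered libraries deviated from their group means with correlations of only -0.073 to 0.063 over measured transcripts. No pair of replicates of a group agreed within sampling noise (chi-square per transcript 1.40 to 7.11). The RNAseq, RF, TE and ratio fits were run on simulated counts, and the fit of 5′UTR footprints alone was not. Python 3.11.15 with pandas 2.3.3 and scipy 1.17.1 was used for levels and intervals.

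The members and lists were chosen with earlier results of these data known. Each gene was named by its measured transcript with the highest mean RNAseq count or, where none was measured, its listed one with the highest. Pathway genes with an adjusted p under 0.05 in RNAseq, RF or TE were named, and the 5 nearest profiles to Azin1, with a pseudocount of 0.5 CPM. Smox and the pathway genes called only under alternative settings were named after their values were seen. Alternatives were DESeq2 1.42.0, library totals, edgeR's filterByExpr, no filter beyond 1 read, gene sums, no block, leaving out each culture and, added after seeing the data, 1 transcript per gene, the fit of 5′UTR footprints alone, and the filterByExpr set for Azin2 and Oaz1.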

Additional observations from a re-analysis of the deposited data

Results flagged for a closer look

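RF reads beyond the annotated stop codon entered no comparison and were above the 3 reads that a count of 0 allows. Summed over all 5 RF libraries, Oaz2 held 24 reads between the stop codon and the next in-frame stop and 22 on the rest of its 3′UTR. Oaz1 held 10 and 12 in the same regions. Azin1 held 21 on the rest of its 3′UTR and none in the stretch after the stop codon. These are few reads, and they were not compared between untreated and KCl cultures. Over all transcripts, the stretch after the stop codon held 0.19% to 0.23% of the reads of an RF library. The rest of the 3′UTR held 0.37% to 0.71%.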

How the results depend on the processing

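The rise of Azin1 in RF and TE and of Oaz1 and Oaz2 in RNAseq kept direction and call under every alternative run: Azin1 RF gave 1.41 to 1.63, Azin1 TE 1.42 to 1.63, Oaz1 RNAseq 0.86 to 1.06 and Oaz2 RNAseq 0.62 to 0.78. The fall of the Azin1 5′UTR to CDS ratio (-2.25 to -1.89) kept its direction, and lost its call only when a KCl culture was left out. Without the replicate block, TE and the ratio each still called 2 member transcripts, TE called 0 pathway transcripts, and Azin1 changed by 1.51 in TE and -2.11 in the ratio, so the block changed no call.

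Member transcripts called were 4 in RNAseq with filterByExpr and 4 with no filter beyond 1 read, and 1 each in RF, TE and the ratio when transcripts were summed to genes or 1 was kept per gene, because both Azin1 transcripts then count as 1. Leaving out single cultures gave 0 to 2 in the ratio. Pathway transcripts called in RNAseq were 12 of 37 with filterByExpr and 12 of 41 with no filter. In both cases 11 were higher and 1 lower, of 4 genes, among them Eif5a with 11 listed transcripts. In RF they were 11 of 21 with library totals, 6 of 27 with filterByExpr and 8 of 31 with no filter. With filterByExpr, 24.6% of all transcripts tested were called in RNAseq and 32.5% in RF. The filters admit more transcripts, and the cause of the count with library totals was not tested. Leaving out single cultures gave 0 to 3 in RNAseq, 3 to 9 in RF and 0 to 4 in TE. The untreated TE of Azin1 was 1.95 with RNAseq RPKM from CDS reads, against 1.30.

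Changes of sign touched only values that were not called. RNAseq of Azin1 was -0.061 with library totals and -0.16 to 0.20 when single cultures were left out. Over the same omissions, 5′UTR footprints ran from -0.089 to 0.47 for Azin2 and -0.18 to 0.41 for Oaz2, and Oaz2 ran from -0.19 to 0.71 in RF and -0.82 to 0.38 in the ratio. The 5′UTR footprints of Azin1 passed the threshold only without untreated culture 3 (-0.68, adjusted p = 0.0452, edgeR). Depth limits the antizymes and Azin2 most, which had at most 33 footprints on either region in cultures 3, 4 and 5.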
